A study of Homo sapiens with 16 samples.

Results

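The loss of HDAC7 exon 9 was examined as a line effect shared by resting and stimulated T cells. All 6 libraries of a Jurkat line edited to lack exon 9 (H7dE9, here dE9) were set against all 4 libraries of its unedited parent (JSL1, genotype WT, here WT) in one additive model with treatment as a covariate. These 10 libraries were chosen by their labels from the 16 of the series. The other 6 come from a line edited to keep exon 9 in place (H7iE9, here iE9) and appear only where their values stand beside those of dE9. The exon 9 share measured in iE9 is given below and was not complete.

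Jurkat is an established human leukaemic T cell line, and JSL1 is a clone of it. The series edited HDAC7 with CRISPR-Cas9 at its own locus and compared polyadenylated RNA between lines and treatments. There were 3 libraries of dE9 cells and 2 of WT cells grown with the phorbol ester PMA at 20 ng/mL, and 3 of dE9 cells and 2 of WT cells left unstimulated. The sample labels give 48 hours for every library, whereas the design text calls the unstimulated cells 0 hours. Whether the libraries of a line are separate cultures, separate clones or repeats of a culture is not in the labels, and a p-value therefore reflects only the spread between these libraries, which may be technical.

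HDAC7 belongs to the class IIa histone deacetylases and is abundant in developing thymocytes. Class IIa enzymes have little deacetylase activity of their own and repress genes by binding MEF2 transcription factors and by recruiting co-repressors with class I enzymes. After T cell receptor signalling they are phosphorylated, bind 14-3-3 proteins and leave the nucleus, which frees targets such as NR4A1. PMA mimics diacylglycerol and switches on protein kinase C and the ERK pathway in T cells. Alternative splicing decides whether exon 9 is kept in the HDAC7 message.

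Each library held between 15617178 and 21888896 estimated counts, and 17228 genes were tested. T lineage genes were present in every library, though not all of them at a high level. CD3E, a signalling chain of the T cell receptor, lay between 342 and 740 CPM (counts scaled to a library total of 1e+06) in dE9. In WT it lay between 292 and 553 CPM. LCK, a kinase of the receptor, lay between 272.5 and 564.4 CPM in dE9 and between 485.2 and 544.4 CPM in WT. By contrast, CD5 had 1.98 and 3.43 CPM in the dE9 libraries numbered 1, against 41.1 to 99.8 CPM in WT. Some markers of other cell types were also present. Their summed levels lay between 20.5 and 655 CPM in dE9 and between 22.5 and 288 CPM in WT for 17 natural killer and cytotoxic genes, with TYROBP at 0 in all 10. The 15 myeloid and mast cell markers summed to between 10.1 and 439 CPM in dE9 and between 16.6 and 118 CPM in WT, with FCGR3A at 0. The 9 B cell markers summed to between 8.72 and 184 CPM in dE9 and between 17.7 and 69.8 CPM in WT, with FCER2 at 0. Erythroid, epithelial, and fibroblast and endothelial sums reached at most 41.8, 35.1 and 22.2 CPM in dE9 and 13.6, 1.48 and 16.2 CPM in WT, and the fibroblast marker LUM was at 0. The PMA-treated dE9 library numbered 1 stood apart from the other PMA-treated libraries in cell cycle genes, as detailed further on with values for results without it. The part of these other markers in the differences below was not tested. In bulk RNA, fewer cells of a kind and less RNA per cell cannot be told apart.

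HDAC7 (ENSG00000061273) lies on the minus strand of chromosome 12, from 47782722 to 47833132 in hg38. Exon 9, numbered in the annotated transcript that holds it, spans chr12:47795906-47796016, is 111 bases long and holds 37 codons, so its removal keeps the reading frame. It is coding sequence, and it is printed here because its presence separates the lines. In the first sequence capitals mark exon 9 and lower case the 30 bases of exon 8 before it and of exon 10 after it. The second, all in lower case, joins exon 8 to exon 10 as in a message that skips the exon. Both were read 5′ to 3′ from the transcripts of GENCODE release 29 (GRCh38).
HDAC7 exon 9 with flanks: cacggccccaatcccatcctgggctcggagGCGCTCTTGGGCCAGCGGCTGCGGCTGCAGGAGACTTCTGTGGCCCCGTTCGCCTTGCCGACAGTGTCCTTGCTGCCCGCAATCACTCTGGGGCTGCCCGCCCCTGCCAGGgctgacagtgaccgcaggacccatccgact
HDAC7 exon 8 to exon 10 junction: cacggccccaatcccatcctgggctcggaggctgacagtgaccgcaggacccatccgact

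The share of HDAC7 message with exon 9 was near 0 in dE9 and near an even split in WT. It was computed as the TPM, a length-scaled abundance, of the 5 annotated transcripts that hold the exon, divided by that of these and the 5 that span it without the exon. In unstimulated cells the share was 2.14%, 0.84% and 7.37% in dE9, against 46.6% and 47.5% in WT. Under PMA it was 0%, 0.678% and 0% in dE9, against 43.1% and 53.8% in WT. The groups did not overlap in either treatment, so the deposited values carry the edit that the labels name. The mean share was 3.45% ± 3.46 in unstimulated dE9 (SD, n = 3), against 47.0% ± 0.636 in WT (SD, n = 2). Under PMA it was 0.226% ± 0.391 in dE9 (SD, n = 3), against 48.4% ± 7.56 in WT (SD, n = 2). Averaged over treatments, dE9 minus WT was −45.89 percentage points, with p = 0.01 in an exact two-sided permutation test within treatments, the smallest p that its 100 arrangements allow. With libraries of the same line and number kept together, an alternative added after the data were seen, the exact permutation p was 0.1, the smallest that its 10 arrangements allow. The estimated reads of exon-containing transcripts in the PMA-treated dE9 libraries were 0, 2.77 and 0, of 1910, 2424 and 3387 reads on transcripts spanning the exon. In the unstimulated dE9 libraries they were 10.5, 5.54 and 48.7, of 483.5, 797.7 and 625.8, so some reads were still assigned to exon-containing transcripts. Unstimulated iE9 had an exon 9 share of 58.3%, 51.8% and 74.9%, above WT. PMA-treated iE9 had 42.3%, 63% and 44.3%, which overlapped WT. By these estimates iE9 did not hold the exon in all of its HDAC7 message.

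The total HDAC7 message did not pass the test of a line effect. In unstimulated cells it stood at 46.9, 59.3 and 53.8 CPM in dE9, against 45.3 and 57.9 CPM in WT. Under PMA it stood at 155.1, 154.8 and 252.7 CPM in dE9, against 242.4 and 236.7 CPM in WT. Both lines held far more of it under PMA, and the dE9 and WT values overlapped in both treatments. The log2 fold change of dE9 over WT was −0.16 ± 0.16 (SE), with an adjusted p of 0.9995 in edgeR's quasi-likelihood test. In the fit of all 16 libraries it was lower in dE9 than in iE9, by a log2 fold change of −1.28 with an adjusted p of 0.00028. The iE9 libraries stood at 204.8, 129.2 and 171.4 CPM unstimulated and at 408.9, 329.5 and 324.8 CPM under PMA. In each treatment these levels were above those of WT as well as dE9.

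**Figure D1:**
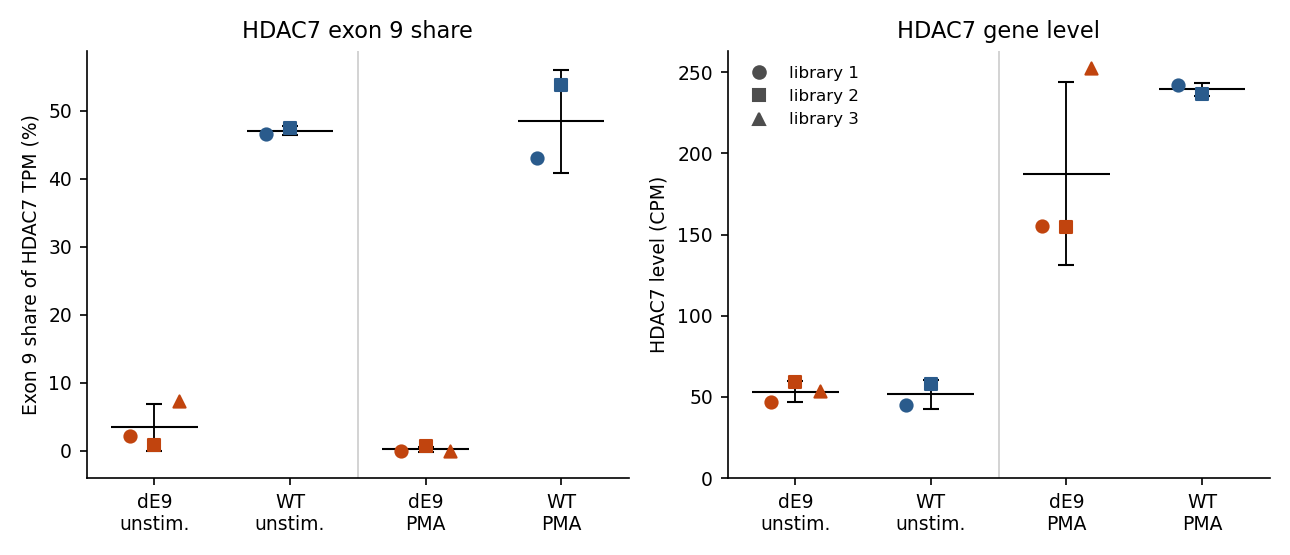
HDAC7 in each library: the share of its message that holds exon 9 (percent of TPM, left) and its total level (CPM, right), with dE9 (red) left of WT (blue) in each treatment. Points are libraries, shaped by number, long lines are group means and error bars are ± 1 SD; the dE9 libraries sit at 0% to 7.37% exon 9 and the WT libraries at 43.1% to 53.8%, while total levels overlap.

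No gene passed the main test of the line effect. Of 17228 genes, 0 (0%) had a Benjamini-Hochberg adjusted p under 0.05 in edgeR's quasi-likelihood test, and the smallest adjusted p was 0.374. At an unadjusted p under 0.05 there were 846 genes (4.91%), of which 459 (2.66%) were higher and 387 (2.25%) lower in dE9. DESeq2, run on the same counts, called 52 of the 16479 genes to which it gave an adjusted p (0.316%), 21 higher and 31 lower. The edgeR test without a filter on low counts called 48 of 31023 genes (0.155%), 15 higher and 33 lower. limma voom with sample weights called 5 genes (0.029%), 1 higher and 4 lower, and without weights it called 0. Genes named below are therefore described by their values, and none of them is called by the main test.

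The spread between libraries differed between the lines. The median SE of a log2 fold change was 0.21 over all genes tested, and 0.14 over the 11515 genes with a mean of at least 5 CPM. The median SD of a gene's log2 level between libraries of a group was 0.246 in unstimulated dE9 and 0.379 in PMA-treated dE9, against 0.124 in unstimulated WT and 0.144 in PMA-treated WT. The dE9 libraries thus varied more among themselves than the WT libraries did. A set of 262 genes (1.52%) was higher and 263 (1.53%) lower in all dE9 libraries than in all WT libraries of the same treatment. The rule drew its genes from this set. Their lack of overlap, given below, was thus a condition of their choice and is not a result.

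**Figure D2:**
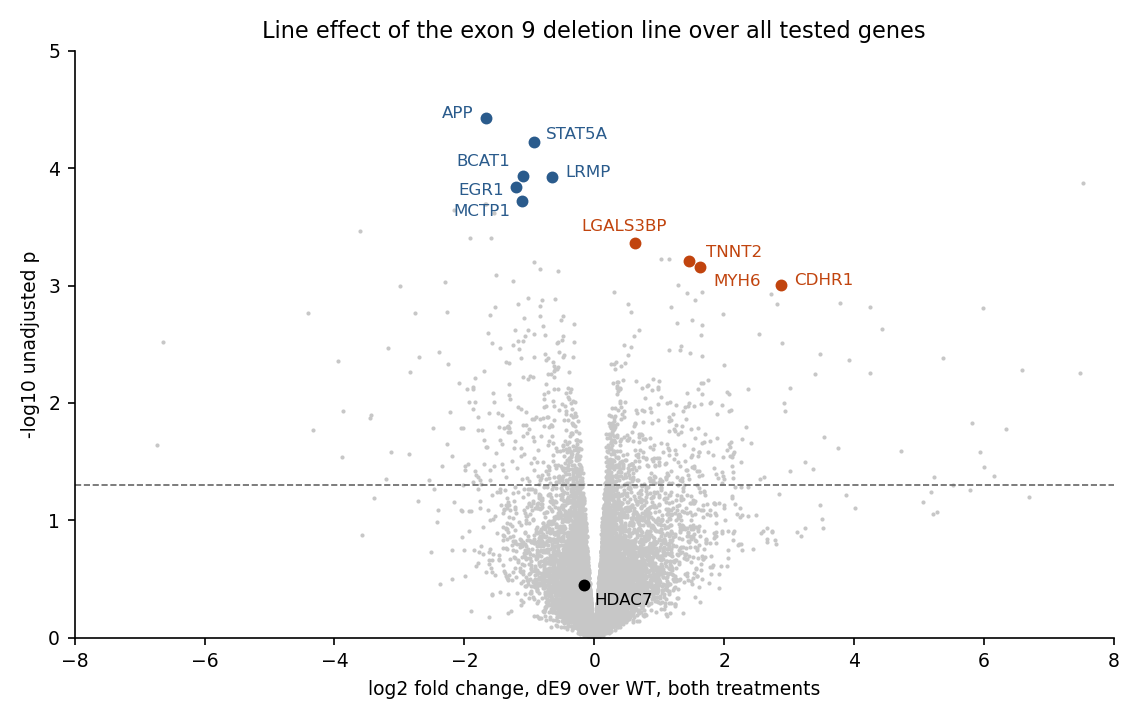
The dE9 over WT effect of every tested gene: log2 fold change (x axis, on which a few genes with larger values fall outside the plot) against −log10 of the unadjusted p of edgeR's quasi-likelihood test (y axis), with genes named in the text by the rule in red (higher) and blue (lower) and a dashed line at an unadjusted p of 0.05. None of the 17228 genes reached an adjusted p under 0.05, and APP and STAT5A stand highest on the plot.

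APP headed the genes that were lower in dE9. It encodes the amyloid precursor protein, a membrane protein cut by secretases (ENSG00000142192, chromosome 21, 25880550 to 26171128, minus strand). In unstimulated cells it had 43.3, 21.8 and 33.7 CPM in dE9, against 83.3 and 94.5 CPM in WT. Under PMA it had 18.4, 9.92 and 21.0 CPM in dE9, against 47.7 and 75.4 CPM in WT. Every dE9 library lay below every WT library of its treatment, and the lowest was number 2 in both treatments. The log2 fold change was −1.67 ± 0.25 (SE), which is 3.19-fold lower in dE9, with an adjusted p of 0.374 by edgeR's quasi-likelihood test. In the fit of all 16 libraries APP was the 1 gene called for this contrast, with an adjusted p of 0.0492 by the same test.

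The iE9 line was lower still in APP. It had 3.546, 2.096 and 2.643 CPM in unstimulated iE9 and 1.23, 0.874 and 0.891 CPM in PMA-treated iE9. In the fit of all 16 libraries the iE9 over WT log2 fold change was −5.49, with an adjusted p of 6.01e-08 by edgeR's quasi-likelihood test. This contrast uses the same WT libraries as the dE9 one, so the pair is not independent. The dE9 over iE9 log2 fold change was 3.81 ± 0.25 (SE), with an adjusted p of 1.69e-06 by the same test.

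STAT5A, a transcription factor that relays interleukin-2 and interleukin-7 signals, was lower in dE9 in both treatments (ENSG00000126561, chromosome 17, 42287547 to 42311943). In unstimulated cells it had 3.09, 2.81 and 4.04 CPM in dE9, against 5.85 and 5.38 CPM in WT. PMA-treated dE9 had 186, 268 and 271 CPM, against 550 and 456 CPM in PMA-treated WT. Levels were far higher under PMA in both lines, and the lines did not overlap in either treatment. The log2 fold change of dE9 over WT was −0.93 ± 0.15 (SE), 1.91-fold lower, with an adjusted p of 0.374 by edgeR's quasi-likelihood test. PMA-treated iE9 had 88.0, 126 and 158 CPM. With the same WT libraries, iE9 over WT was −1.20 with an adjusted p of 0.00739, while dE9 over iE9 was 0.28 with an adjusted p of 0.421 (edgeR, all 16 libraries).

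EGR1, an immediate-early transcription factor induced by ERK signalling, was lower in dE9 in both treatments (ENSG00000120738, chromosome 5). It had 3.90, 6.61 and 4.32 CPM in unstimulated dE9, against 16.02 and 16.01 CPM in unstimulated WT. In PMA-treated cells its levels were 210.2, 202.4 and 172.5 CPM in dE9, against 270 and 397 CPM in WT. Both treatments separated the lines without overlap. The fold change on the log2 scale was −1.69 in unstimulated cells and −0.77 under PMA, a difference that did not pass the interaction test (adjusted p = 0.9999 by edgeR). The pooled value was −1.20 ± 0.21 (SE) with an adjusted p of 0.374 by edgeR's quasi-likelihood test. Against iE9, dE9 was also lower, by a log2 fold change of −0.93 ± 0.19 (SE) with an adjusted p of 0.00956 in the fit of all 16 libraries. In that fit iE9 over WT was −0.31, with an adjusted p of 0.399 by edgeR.

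A pair of genes on the short arm of chromosome 12 was also lower. BCAT1 encodes the cytosolic branched-chain amino acid transaminase (ENSG00000060982, 24810022 to 24949459, minus strand). It had 45.2, 21.5 and 43.2 CPM in unstimulated dE9, against 70.7 and 77.1 CPM in unstimulated WT, and 29.2, 32.8 and 36.9 CPM in PMA-treated dE9, against 67.7 and 81.7 CPM in PMA-treated WT. The lines did not overlap, and the log2 fold change was −1.10 ± 0.19 (SE) with an adjusted p of 0.374 by edgeR's quasi-likelihood test. LRMP, a lymphoid-restricted membrane protein of the endoplasmic reticulum, lies nearby (ENSG00000118308, 25004342 to 25108334). It had 36.1, 37.0 and 37.7 CPM in unstimulated dE9, against 69.9 and 57.2 CPM in unstimulated WT, and 24.2, 29.2 and 31.3 CPM in PMA-treated dE9, against 41.1 and 38.7 CPM in PMA-treated WT. Its dE9 values were tightly grouped below WT, with a log2 fold change of −0.64 ± 0.11 (SE) and an adjusted p of 0.374 by the same test. LRMP was also lower in dE9 than in iE9, by −0.68 ± 0.13 (SE), with an adjusted p of 0.00529 in the fit of all 16 libraries. Its iE9 over WT value was 0.03, with an adjusted p of 0.917 by edgeR in that fit. For BCAT1, iE9 over the same WT libraries was −1.01 with an adjusted p of 0.00515. The dE9 over iE9 value of BCAT1 was −0.09 with an adjusted p of 0.772 (edgeR, all 16 libraries).

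The last of the 6 lower genes, MCTP1, encodes a calcium-binding protein with C2 domains (ENSG00000175471, chromosome 5). It had 4.52, 2.95 and 3.02 CPM in unstimulated dE9, against 9.37 and 7.74 CPM in unstimulated WT. With PMA the libraries held 3.93, 3.63 and 4.44 CPM in dE9, against 7.54 and 7.54 CPM in WT. These low levels did not overlap, and the gene was 2.15-fold lower in dE9, with an adjusted p of 0.374 by edgeR's quasi-likelihood test. APP, BCAT1, LRMP and MCTP1 each overlap annotated genes on the other strand, among them SLF1 for MCTP1. Overlap was judged from gene spans and not from exons. The strandedness of the libraries is not given, so reads from any exons shared with such partners could not be told apart by strand.

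**Figure D3:**
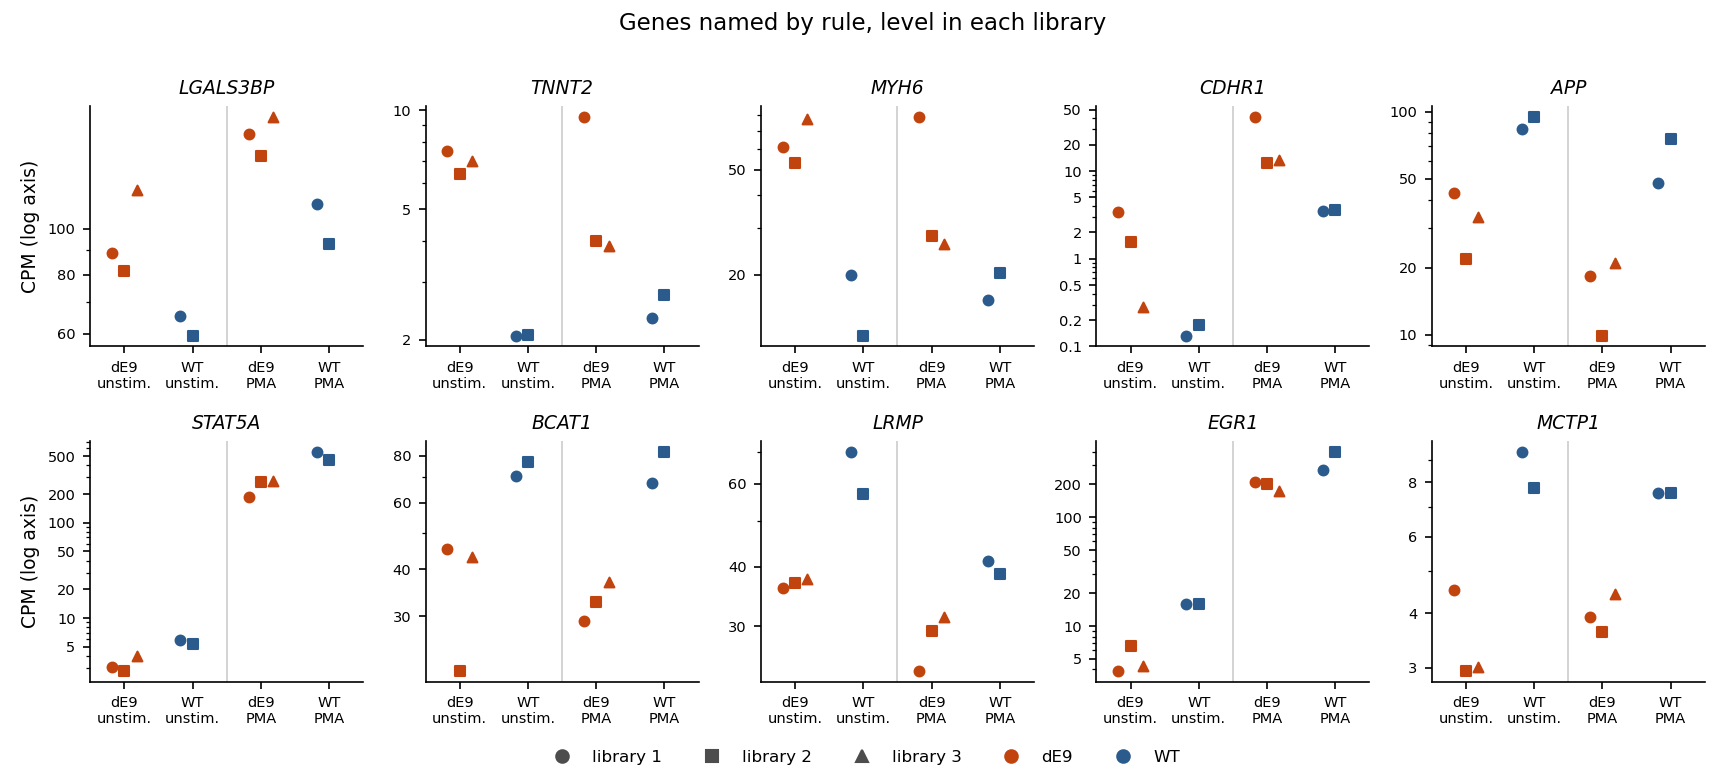
Levels of 10 genes named by the rule for the line effect in every library (CPM, log axes), dE9 (red) left of WT (blue) within each treatment; points are libraries, shaped by number. No overlap between the dE9 and WT points of a treatment was a condition for naming these 10 genes.

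LGALS3BP, TNNT2, MYH6 and CDHR1 are described among the genes that the rule named as higher in dE9, and LGALS3BP had the smallest unadjusted p of these. It encodes a secreted glycoprotein that binds galectins (ENSG00000108679). It had 88.9, 81.3 and 120 CPM in unstimulated dE9, against 65.6 and 59.5 CPM in unstimulated WT. Under PMA it had 159, 142 and 172 CPM in dE9, against 113 and 93.0 CPM in WT. The groups did not overlap, and the difference was modest, at a log2 fold change of 0.62 ± 0.12 (SE) with an adjusted p of 0.500 by edgeR's quasi-likelihood test.

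CDHR1, a cadherin best known from photoreceptors, had the largest fold change of these 4 genes. It had 3.40, 1.55 and 0.284 CPM in unstimulated dE9, against 0.133 and 0.177 CPM in unstimulated WT. With PMA the libraries held 41.4, 12.4 and 13.5 CPM in dE9, against 3.51 and 3.55 CPM in WT. The dE9 libraries numbered 1 were the highest in both treatments. Its log2 fold change was 2.88 ± 0.64 (SE), 7.36-fold higher in dE9, with an adjusted p of 0.595 by edgeR's quasi-likelihood test. The same gene was higher in iE9 than in the shared WT libraries, by 4.31 with an adjusted p of 0.0233. Between the edited lines, dE9 over iE9 was −1.27 with an adjusted p of 0.261 (edgeR, all 16 libraries).

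Another pair, MYH6 and TNNT2, encodes heart muscle proteins. MYH6, the alpha heavy chain of cardiac myosin, had 60.9, 52.8 and 77.7 CPM in unstimulated dE9, against 20.0 and 11.8 CPM in unstimulated WT. Under PMA it had 78.9, 28.1 and 26.2 CPM in dE9, against 16.1 and 20.3 CPM in WT. All dE9 libraries were higher than WT, and the PMA-treated dE9 library numbered 1 was the highest of all. For MYH6 the log2 fold change was 1.64 ± 0.35 (SE), with an adjusted p of 0.583 by edgeR's quasi-likelihood test. TNNT2, cardiac troponin T, had 7.483, 6.376 and 6.997 CPM in unstimulated dE9, against 2.06 and 2.07 CPM in unstimulated WT. PMA-treated dE9 had 9.53, 3.99 and 3.87 CPM, against 2.32 and 2.73 CPM in PMA-treated WT. TNNT2, which shares its locus with LAD1, did not overlap between lines either, with a log2 fold change of 1.46 ± 0.30 (SE) and an adjusted p of 0.567 by the same test. Against the shared WT libraries, iE9 was higher by 1.12 for MYH6 with an adjusted p of 0.0404, and by 1.11 for TNNT2 with an adjusted p of 0.0465 (edgeR, all 16 libraries). In the same test dE9 over iE9 did not pass, at 0.52 for MYH6 (adjusted p = 0.22) and 0.36 for TNNT2 (adjusted p = 0.399).

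A list of 16 cardiac muscle genes, drawn up after the MYH6 and TNNT2 values were seen, was described by its counts. Of the 10 members tested, 9 had a fitted value above 0 and 7 had an unadjusted p under 0.05, all higher in dE9, against 2.66% of all genes. The median log2 fold change was 1.45, against 0.02 over all genes tested. DESeq2 called 6 of the 10, against 0.316% of all genes. Since the list was made for its values, it gets no test.

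The list's level was low and of mixed make-up. The members summed to 133, 108 and 146 CPM in unstimulated dE9, against 45.7 and 35.4 CPM in unstimulated WT. Under PMA they summed to 158, 68.4 and 65.0 CPM in dE9, against 48.4 and 51.7 CPM in WT. Beyond MYH6 and TNNT2, the log2 fold change was 1.5 ± 0.37 (SE) for MYH7, the beta myosin heavy chain, and 1.66 ± 0.37 (SE) for TNNI3, cardiac troponin I. It was 1.29 ± 0.29 (SE) for TNNC1, the calcium-binding troponin, and 1.44 ± 0.46 (SE) for ACTC1, cardiac actin. MYL2 and MYL7, the ventricular and atrial regulatory light chains, and NPPB, a natriuretic peptide, were at 0 in all 10 libraries. MYH6 and MYH7 are near-identical neighbours whose reads can be split wrongly, and the ratio of MYH7 to MYH6 ran from 0.27 to 0.34 in dE9 and from 0.28 to 0.42 in WT.

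The calls of DESeq2 and of the unfiltered edgeR test shared 28 genes, which is 53.9% of the DESeq2 calls and 58.3% of the edgeR ones. The following genes were chosen after their values were seen, and their p-values come from DESeq2 with Benjamini-Hochberg adjustment. Among genes lower in dE9 were SLC7A11, the cystine importer (−1.59, adjusted p = 0.00121), and CD1D, which presents lipids to T cells (−0.93, adjusted p = 0.00801). FDPS, an enzyme of the cholesterol pathway (−0.61, adjusted p = 0.0448), and DDIT4, a stress-induced inhibitor of mTORC1 (−1.23, adjusted p = 0.0272), were also among them. Larger differences belonged to genes of low level, such as the gap junction gene GJA1 (−3.73, adjusted p = 0.00291) and the chloride channel gene CFTR (−2.77, adjusted p = 0.00922). Among genes higher in dE9 were HLA-B, a classical MHC class I heavy chain (1.27, adjusted p = 0.0136), and HCP5, a noncoding gene of the MHC region (1.96, adjusted p = 0.00643). TBX21, the T-bet transcription factor (3.82, adjusted p = 0.0448), was higher too.

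The genes around HDAC7 itself showed few differences. Of 16 HDAC and sirtuin genes tested, HDAC7 included, 0 had an unadjusted p under 0.05 in either direction, and the median log2 fold change was 0.06. HDAC1 and HDAC2, the class I enzymes of most co-repressor complexes, stood at 0.06 ± 0.08 and 0.02 ± 0.13 (log2 fold change ± SE). HDAC9, another class IIa enzyme, stood at 1.12 ± 0.60, with no pass. Of 15 co-repressor genes, 0 had an unadjusted p under 0.05. Among 13 MEF2, NR4A and related targets, 1 did: NFATC1, a calcium-regulated transcription factor, at −0.42 ± 0.16. NR4A1, the nuclear receptor that HDAC7 represses in thymocytes, stood at −0.56 ± 0.38. Among 17 genes of 14-3-3 proteins and of the kinases that phosphorylate class IIa enzymes, 1 had an unadjusted p under 0.05, the kinase SIK3 at 0.27, and the median was 0.02. These shares are to be read against 4.91% of all genes at the same unadjusted threshold.

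AP-1 and EGR genes, and the regulators that feed back on MAPK signalling, were counted as lists of genes tied to the PMA response. Of 20 AP-1 and EGR genes, 5 were lower and 0 higher at an unadjusted p under 0.05, against 2.25% of all genes lower, and the median log2 fold change was −0.15, against 0.02 over all genes. The count was 3 without the unstimulated WT library numbered 2 (1.60% of all genes lower), and with any other single library left out it was 4 or 5. The median was −0.27 without the PMA-treated dE9 library numbered 1 and −0.08 without number 3. With counts summed by line and number, 2 were lower. Beside EGR1 these were ATF3 at −1.07 ± 0.26, EGR2 at −1.13 ± 0.31, EGR3 at −0.93 and IER2 at −0.25. Of 16 MAPK feedback regulators, 2 were lower and 0 higher, with a median of −0.08 and 7 fitted values above 0. Without the PMA-treated dE9 library numbered 2, 4 were lower (2.79% of all genes). DUSP6, the phosphatase that removes activating phosphates from ERK, had 3.83, 3.38 and 4.44 CPM in unstimulated dE9, against 7.78 and 5.32 CPM in unstimulated WT. In PMA-treated cells its levels were 160, 324 and 199 CPM in dE9, against 489 and 365 CPM in WT. It did not overlap between lines in either treatment, with a log2 fold change of −0.84 ± 0.20. The feedback regulators summed to 576, 827 and 784 CPM in PMA-treated dE9, against 1010 and 1047 CPM in PMA-treated WT. None of these genes passed the adjusted test.

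Surface markers of T cell activation were counted next. Of 11 tested, 2 were lower and 0 higher at an unadjusted p under 0.05, CD69 and CD38, against 2.25% of all genes lower, and the median was −0.32. CD69, an early activation antigen that holds T cells in tissue, had 5.81, 7.22 and 6.26 CPM in unstimulated dE9, against 10.7 and 12.7 CPM in unstimulated WT. With PMA the libraries held 135, 315 and 297 CPM in dE9, against 400 and 398 CPM in WT. The dE9 libraries lay below WT throughout, and the lowest under PMA was number 1. Its log2 fold change was −0.76 ± 0.21.

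Of 26 genes for T cell receptor chains and signalling close to the receptor, 1 was higher and 2 lower at an unadjusted p under 0.05, with a median of −0.03, against 2.66% of all genes higher and 2.25% lower. The lower pair were the receptor chain genes TRAC, at −1.35 ± 0.47, and TRBC1, at −0.58. Of 28 co-receptors and surface molecules, 7 were lower and 0 higher, while the median was 0.10 and 15 fitted values were above 0. Without the unstimulated WT library numbered 1, the PMA-treated WT library numbered 2 or the unstimulated dE9 library numbered 3, 4, 4 or 3 were lower, against 1.57%, 1.66% or 2.19% of all genes. They included CD1D at −0.93 ± 0.19 and CD1E at −1.55 ± 0.48, both lipid-presenting proteins, the adhesion receptor CD2 at −2.06 and the co-receptor CD4 at −2.19.

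Of 43 thymocyte transcription factors and recombination genes, 3 were higher and 6 lower at an unadjusted p under 0.05, with a median of −0.08, against 2.66% of all genes higher and 2.25% lower. With 1 library left out in turn, 1 to 7 were lower, the fewest without the PMA-treated WT library numbered 1, and the higher count reached 7 without the unstimulated WT library numbered 2 or the PMA-treated dE9 library numbered 3. RAG1, which cuts DNA at antigen receptor genes, had 501, 315 and 158 CPM in unstimulated dE9, against 935 and 747 CPM in unstimulated WT. Its level was low under PMA in both lines, with 7.54, 5.69 and 6.26 CPM in dE9, against 9.01 and 9.51 CPM in WT. Its line effect was −0.99 ± 0.29, and its dE9 values did not overlap those of WT. RAG2, its partner, DNTT, which adds bases at the joints, and ETS1, MYB and TOX were the other lower members. Among the higher members were the T-box factors TBX21, at 3.78 ± 0.88 from the low level given above, and EOMES, at 1.59 ± 0.48. No member passed the adjusted test of edgeR.

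The list of cholesterol and fatty acid synthesis genes leaned towards one side. Of its 22 members tested, 16 were lower and 0 higher at an unadjusted p under 0.05, against 2.25% of all genes lower. Only PMVK, a mevalonate pathway kinase, had a fitted value above 0 among the 22. The median log2 fold change was −0.37, and it was −0.47 in unstimulated cells and −0.30 under PMA. The summed level of the list lay between 2481 and 5879 CPM in dE9 and between 4029 and 8118 CPM in WT, so the lines overlapped across treatments. Without the PMA-treated dE9 library numbered 1, 12 members had an unadjusted p under 0.05 in the lower direction, against 4.51% of all genes in that fit. Without the dE9 libraries of number 1, 2 or 3 in both treatments, 13, 18 or 7 did, against 6.13%, 3.03% or 3.91% of all genes. Without the unstimulated WT library numbered 1 or 2, or the unstimulated dE9 library numbered 3, 10, 8 or 9 did, against 1.57%, 1.60% or 2.19% of all genes. None passed the adjusted test in the fit of all 10 libraries.

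FDPS, which makes farnesyl diphosphate, had 361, 348 and 334 CPM in unstimulated dE9, against 586 and 671 CPM in unstimulated WT. Under PMA it had 223, 253 and 165 CPM in dE9, against 293 and 251 CPM in WT. The lines stood apart at rest but overlapped under PMA, and the log2 fold change was −0.61 ± 0.14. INSIG1, which holds the sterol sensor back in the endoplasmic reticulum, had 226, 234 and 206 CPM in unstimulated dE9, against 454 and 494 CPM in unstimulated WT. PMA-treated cells held 104, 249 and 96.1 CPM in dE9, against 218 and 191 CPM in WT, with a library of dE9 above both WT libraries. Its log2 fold change was −0.78 ± 0.25. SCD, the stearoyl-CoA desaturase, stood at −0.62 ± 0.21, and SREBF2, the transcription factor that drives these genes, at −0.37 ± 0.11.

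Antigen presentation genes lay on the higher side. Of 20 members tested, 10 were higher and 0 lower at an unadjusted p under 0.05, against 2.66% of all genes higher, and all 20 had a fitted value above 0. The median log2 fold change was 0.58. Without the dE9 libraries of number 1, 2 or 3, the count of higher members was 8, 5 or 14, against 4.63%, 2.78% or 4.37% of all genes in those fits. It was 6 without the PMA-treated dE9 library numbered 2 (2.84% of all genes), and 6 of 23 tested without the PMA-treated WT library numbered 1 (1.77%) or 2 (1.89%). HLA-B had 314.6, 431.4 and 164.6 CPM in unstimulated dE9, against 156.4 and 128.7 CPM in unstimulated WT. PMA-treated dE9 had 2851, 4669 and 1706 CPM, against 1295 and 944.2 CPM in PMA-treated WT. In both treatments dE9 library number 2 was the highest and number 3 the closest to WT. Its log2 fold change was 1.27 ± 0.31, with an adjusted p of 0.629 by edgeR's quasi-likelihood test.

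B2M, the light chain shared by all class I molecules, had 643, 634 and 562 CPM in unstimulated dE9, against 553 and 502 CPM in unstimulated WT, and 2236, 2751 and 1704 CPM in PMA-treated dE9, against 1508 and 1195 CPM in PMA-treated WT. Its dE9 values lay above those of WT in both treatments, with a log2 fold change of 0.47 ± 0.15. TAP1, a subunit of the peptide transporter, stood at 1.0 ± 0.40, and NLRC5, the transactivator of class I genes, at 0.78 ± 0.28. Class I heavy chains share much sequence, so estimated counts can be split between them. Of 33 interferon-induced genes, 4 were higher and 0 lower at an unadjusted p under 0.05, with a median of 0.25, against 2.66% of all genes higher. The count was 7 without the unstimulated dE9 library numbered 2 (2.18% of all genes) and 2 without the PMA-treated WT library numbered 2 (1.89%), and the median was 0.16 without the PMA-treated dE9 library numbered 2. With all libraries they included the guanylate-binding protein GBP1 at 0.81 ± 0.24.

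Stress-response genes were on the lower side. Of 20 genes of the unfolded protein and integrated stress responses, 7 were lower and 0 higher at an unadjusted p under 0.05, with a median of −0.33 and 4 fitted values above 0, against 2.25% of all genes lower. The count was 11 without the PMA-treated dE9 library numbered 1 (4.51% of all genes), 13 without number 1 in both treatments (6.13%), and 4 without either unstimulated WT library (1.57% and 1.60%). The median was −0.22 without the unstimulated dE9 library numbered 2 and −0.17 without number 2 in both treatments. SLC7A11 had 24.2, 8.63 and 11.6 CPM in unstimulated dE9, against 36.9 and 32.7 CPM in unstimulated WT. In PMA-treated cells its levels were 2.80, 4.50 and 6.20 CPM in dE9, against 14.7 and 19.7 CPM in WT. The lines did not overlap in either treatment, and the log2 fold change was −1.59 ± 0.31, with an adjusted p of 0.487 by edgeR's quasi-likelihood test. ASNS, asparagine synthetase, stood at −0.86, SHMT2, the mitochondrial serine hydroxymethyltransferase, at −0.32 ± 0.08, and DDIT4 at −1.96 in unstimulated cells and −0.40 under PMA.

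**Figure D4:**
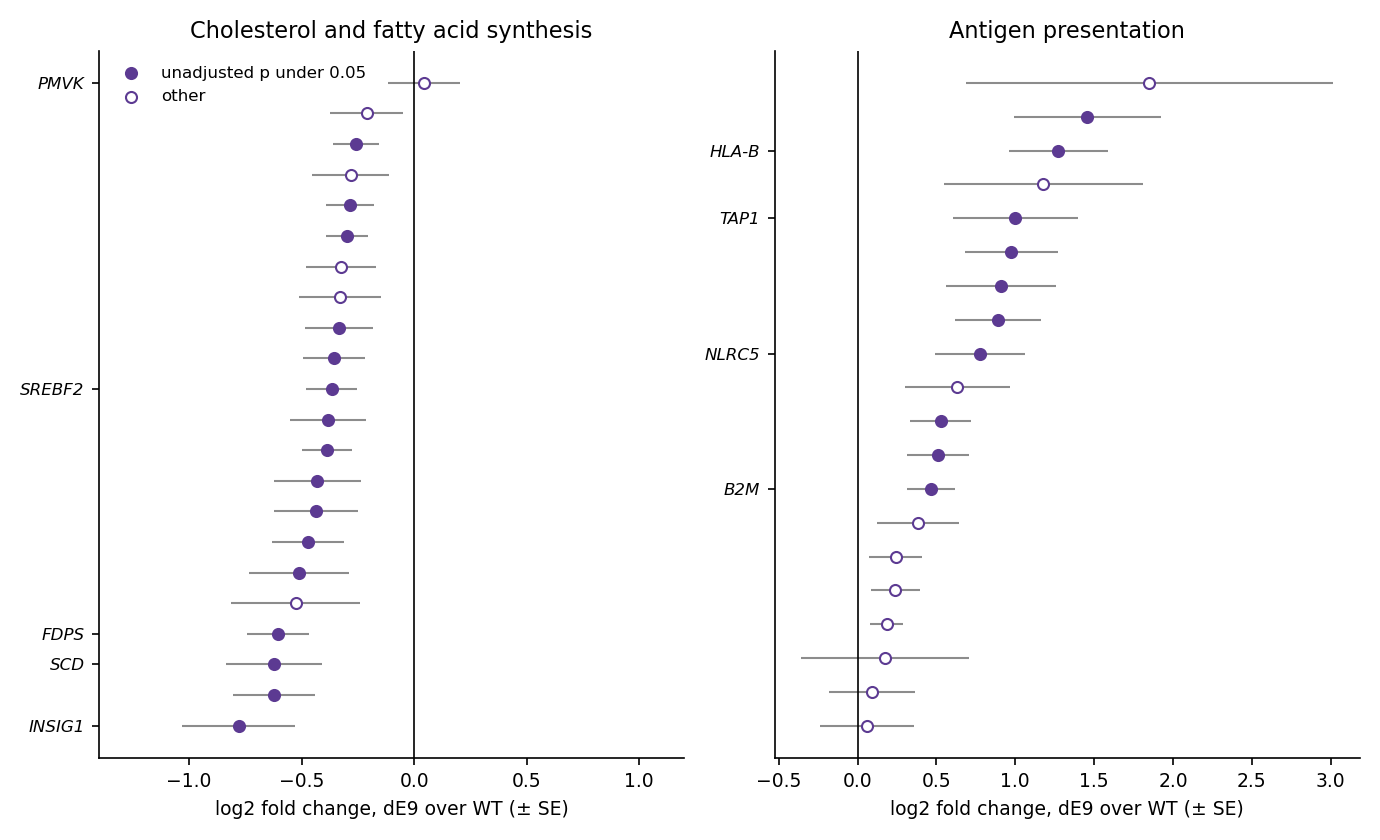
Log2 fold changes of dE9 over WT (x axis, ± SE) for the tested members of the cholesterol and fatty acid synthesis list (left) and the antigen presentation list (right), 1 point per gene in order of its value, with names for genes given in the text, filled where the unadjusted p was under 0.05. Of 22 cholesterol and fatty acid genes 16 are filled and below 0, and of 20 antigen presentation genes 10 are filled and above 0.

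Of 30 cell cycle genes, 0 were higher and 0 lower at the unadjusted threshold with all 10 libraries, with a median of −0.07. That count rested on the PMA-treated dE9 library numbered 1: without it 13 were lower, against 4.51% of all genes, all 30 had a fitted value below 0 and the median was −0.69. Without number 1 in both treatments 13 were lower too (6.13% of all genes), with a median of −0.74.

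Counts with all libraries were 0 higher and 0 lower for 20 NOTCH pathway genes, 17 p53 targets, 20 apoptosis genes, 35 splicing factors and 38 histone-modifying genes. They were also 0 for 13 mitochondrial genes, 14 CDK inhibitors and G1 regulators and 9 cytokines, and 2 of 13 MYC network genes were lower. Of 20 NF-kB members and targets 1 was higher, of 20 glycolysis genes 1 was lower, and of 19 ribosome biogenesis genes 2 were higher. For 23 cytokine receptors and for 19 genes of protein kinase C and diacylglycerol signalling, 2 were higher and 1 lower, and for 27 adhesion and homing genes 2 were higher and 3 lower. Of the markers of other cell types, GZMK, a cytotoxic granule protease, and KRT5, a keratin, were higher and KIT, a stem cell factor receptor, was lower at this threshold, among 26 such markers tested. In all, 87 of 662 distinct list members (13.1%) had an unadjusted p under 0.05, against 4.91% of all genes, and no member of the 36 lists passed the adjusted test. The lists were chosen with earlier results of these data known, so these shares are a description and not a test. List members named here for a small unadjusted p were chosen after their values were seen.

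The additive model takes the line effect to be the same in both treatments. The interaction test called 0 genes (0%), and 217 (1.26%) had an unadjusted p under 0.05, 0.505% with a positive and 0.755% with a negative term, by edgeR's quasi-likelihood test. Within treatments, 0 genes were called in unstimulated cells, where 557 (3.23%) had an unadjusted p under 0.05, 318 higher (1.85%) and 239 lower (1.39%) in dE9. Under PMA 0 were called with all libraries, and 404 (2.35%) had an unadjusted p under 0.05, as many higher (1.17%) as lower (1.17%). Without the filter on low counts edgeR called 2 genes for the interaction (0.00645%), 15 in unstimulated cells (0.0484%) and 24 under PMA (0.0774%). DESeq2 called 23 genes in unstimulated cells, 10 higher and 13 lower, and 17 under PMA, 4 higher and 13 lower. limma voom with sample weights called 3 in unstimulated cells (0.0174%) and 1 under PMA (0.0058%).

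A single library decided the count under PMA. Without the PMA-treated dE9 library numbered 1, edgeR's quasi-likelihood test called 194 of 16988 genes (1.14%) in PMA-treated cells, 5 higher and 189 lower in dE9. Without the dE9 libraries of number 1 in both treatments, an alternative added after the data were seen, it called 172, 4 higher and 168 lower. Of 30 cell cycle genes, 19 were among those called lower without the PMA library, with a list median of −1.61, against −0.18 with all libraries. CDK1, the kinase that starts mitosis, had 104, 16.4 and 9.27 CPM in PMA-treated dE9, against 51.6 and 52.0 CPM in PMA-treated WT. Library 1 thus lay above WT and the other dE9 libraries below it. Without library 1 the log2 fold change of CDK1 was −2.01 ± 0.23, with an adjusted p of 0.008 by the same test.

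The sums of the cell cycle list repeated this split. They were 3380, 965 and 613 CPM in PMA-treated dE9, against 1922 and 1877 CPM in PMA-treated WT. In unstimulated cells they were 7447, 8108 and 8169 CPM in dE9, against 7997 and 7414 CPM in WT. On the first principal component of log2 CPM, which held 55.2% of the variance and followed treatment, the PMA-treated dE9 libraries stood at 42.1, 88.2 and 101.1, against 72.6 and 72.2 in PMA-treated WT. The library labelled PMA-treated dE9 number 1 thus lay nearest the unstimulated cells on this axis.

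The dE9 libraries also differed among themselves by number, in a way that recurred in both treatments. The deviations from the group mean of dE9 libraries with the same number correlated across genes by r = 0.25 to 0.32 between treatments (3 pairs), against −0.20 to −0.04 between different numbers (6 pairs). Deviations within a group cancel out for each gene, so positive values at the same number bring negative ones between different numbers. Genes are not independent replicates, and these values are given as a description with no test. Of 10869 genes considered, 51 were more than 1 log2 unit higher and 55 lower in number 1 than in both other numbers, in both treatments. For number 2 there were 29 higher and 19 lower, and for number 3 there were 16 higher and 47 lower.

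CTBP2, a transcriptional co-repressor, had 93.8 CPM in unstimulated and 86.7 CPM in PMA-treated dE9 number 1, and between 0.643 and 1.14 CPM in the other dE9 libraries, against 8.64 to 12.3 CPM in WT. CD5, a surface inhibitor of T cell receptor signalling, had 1.98 and 3.43 CPM in number 1 and between 52.1 and 136.8 CPM in the other dE9 libraries, against 41.1 to 99.8 CPM in WT. Both genes thus set number 1 apart from WT and from its own line. LTB, the lymphotoxin beta chain, had 23.02 CPM in unstimulated and 32.14 CPM in PMA-treated number 2, and between 0.171 and 1.4 CPM in the other dE9 libraries, against 0.827 to 4.875 CPM in WT. ETFA, an electron transfer flavoprotein subunit, had 15.8 and 14.6 CPM in number 3 and between 55.6 and 120.8 CPM in the other dE9 libraries, against 79.4 to 115 CPM in WT. SIX6, a homeobox gene best known from the eye, had 15.03, 9.33 and 108 CPM in unstimulated dE9, against 65.1 and 76.4 CPM in unstimulated WT. PMA-treated cells held 9.89, 4.68 and 113 CPM in dE9, against 69.4 and 64.1 CPM in WT, so number 3 lay above WT and the others below. These genes were chosen after their values were seen.

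Medians over whole chromosomes differed in single dE9 library numbers as well. For the 11489 genes on 23 chromosomes with a mean of at least 5 CPM, each dE9 library was set against the mean of WT libraries of its treatment, and the median over all genes was taken off. The median log2 difference on chromosome 12 was −0.25 in unstimulated and −0.27 in PMA-treated dE9 number 2. On chromosome 15 it was −0.23 and −0.23, on chromosome 10 −0.26 and −0.19, and on chromosome 22 −0.12 and −0.24 in the same libraries. The other chromosomes of number 2 lay between −0.06 and 0.17. Along chromosome 12, in 12 windows of 10 Mb with at least 20 genes, number 2 lay between −0.43 and −0.08 in every window. In dE9 number 1, the 61 genes from 10 to 20 Mb of chromosome 1 had medians of 0.46 in unstimulated and 0.44 in PMA-treated cells, against values from −0.03 to 0.03 in the other 4 dE9 libraries.

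**Figure D5:**
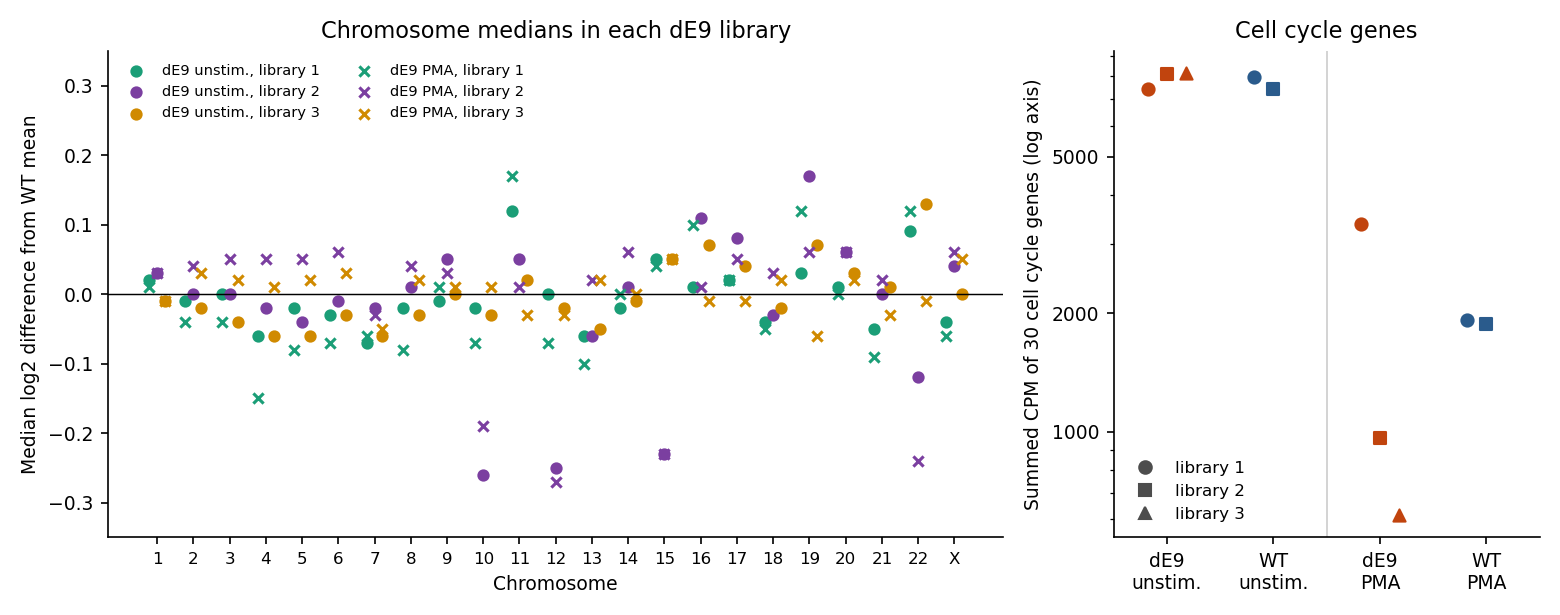
Left, the median log2 difference of each dE9 library from the WT mean of its treatment (y axis) on each chromosome (x axis), coloured by library number, with dots for unstimulated and crosses for PMA-treated libraries. Right, the summed CPM of 30 cell cycle genes in each library (log axis), dE9 left of WT; number 2 stands at −0.25 and −0.27 on chromosome 12, and the PMA-treated dE9 libraries sum to 3380, 965 and 613 CPM, against 1922 and 1877 CPM in WT.

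HDAC7 itself, BCAT1 and LRMP lie on chromosome 12. Of 603 chromosome 12 genes at this level, 1 was higher and 35 lower at an unadjusted p under 0.05, with a median of −0.09, against 2.41% of the 11515 genes lower. Without the dE9 libraries of number 2, 8 were higher and 26 lower, with a median of −0.03, against 3.29% of all genes at this level lower in that fit. On chromosome 10, 4 were higher and 27 lower of 440 genes, and 6 were higher and 24 lower without number 2, against the same 2.41% and 3.29%. On chromosome 15, 10 were higher and 9 lower of 411 genes, and on chromosome 22, 1 was higher and 5 lower of 293. Counts were uneven on other chromosomes too. They were 39 higher and 12 lower of 652 on chromosome 11, 34 and 7 of 807 on chromosome 19, and 3 and 18 of 570 on chromosome 7. Over all 11515 genes they were 278 higher and 277 lower. What part the shifts in number 2 had in these counts, or in the line effect of single genes, was not tested.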

How the data were processed

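Polyadenylated RNA of Jurkat lines was sequenced, and the analysis starts from deposited values. Salmon, DESeq2 and hg38 were used, per the submitters' processing notes; versions and strandedness: not given in the sources used here. The authors deposited an estimated count, a TPM value and an effective length for each transcript, per the file headers, and a gene-level TPM table. Its 16 value columns matched 1 library each, 0 were unused, and it was used to check gene sums of TPM.

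Estimated counts were summed per gene (205870 of 205870 transcripts matched GENCODE release 29) and rounded. Mitochondrial genes took 3.0% to 6.39% of counts in the 10 libraries, and no replicate pair agreed within sampling noise (lowest chi-square per degree of freedom 7.14). In iE9 number 1 they took 9.17% unstimulated and 12.8% under PMA, against 3.85% to 5.98% in the other iE9 libraries. Chi-square per degree of freedom was 91.64 to 118.44 for iE9 pairs with number 1, against 7.73 and 16.07 for the others. These libraries entered the fit of all 16. Genes kept by filterByExpr (17228 of 31023 with a count) were tested on the 10 libraries with edgeR 4.0.16 in R 4.3.3: TMM, glmQLFit and glmQLFTest, line plus treatment, two-sided, Benjamini-Hochberg adjustment, call under 0.05. The interaction and the effects within treatments came from a fit of the 4 groups, and contrasts with iE9 from a fit of all 16 libraries. The biological coefficient of variation was 31.1%. CPM are TMM-scaled counts per 1e+06. Alternatives used DESeq2 1.42.0 and limma 3.58.1 and are described at the end; intervals and tests cover these libraries only. The pooled edgeR test was first tested on simulated data.

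Genes were named by a rule: up to 12 per direction past the threshold with no overlap between lines and at least 5 CPM or, as none passed, the 6 per direction with the smallest unadjusted p that met the other conditions, and from each list up to 2 members with the highest level, of which the text gives some. Some genes are not reported here. The comparison, the lists and the rule were chosen with earlier results of these data known.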

Additional observations from a re-analysis of the deposited data

How the results depend on the processing

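The pooled test called 0 genes by edgeR under DESeq2's size factor scaling (RLE), library size only, a stricter filter and robust estimation. It also called 0 with a transcript length offset and with averaging over 4 groups. Further alternatives were added after the data were seen and called 0 too. These were edgeR on counts summed by line and number, plain limma voom, and limma voom with an estimated correlation. Without a filter edgeR called 48 genes (interaction 2, unstimulated 15, PMA 24). DESeq2 called 52 (unstimulated 23, PMA 17), and voom with sample weights 5 (unstimulated 3, PMA 1). The fit of all 16 libraries called 1. Leaving out each library in turn gave 0 to 2 pooled calls, 0 to 3 for the interaction, 0 for unstimulated cells and 0 to 194 for PMA, the last without the PMA-treated dE9 library numbered 1. Leaving out dE9 libraries by number, also added after the data were seen, gave 15 pooled calls (1 higher, 14 lower), 1 for unstimulated cells and 172 for PMA without number 1, then 1 pooled call without number 2 and 2 without number 3. The replicate numbers did not pair dE9 with WT libraries (r of same-numbered deviations 0.01 at rest, 0.04 to 0.13 under PMA). With a replicate block 1 gene was called, SIX6 (−2.91, adjusted p = 0.0176 by edgeR). In that fit dE9 number 3, with no WT partner, adds no comparison of the lines, though it enters the treatment term and the spread. The exon 9 difference was −46.82 points with the replicate block (exact permutation p = 0.0556 over 36 arrangements, under which p = 0.05 is not reached), −45.89 with library numbers kept together (exact permutation p = 0.1 over 10) and −48.57 to −43.22 without each library. Of 485 values of 18 named genes under these alternatives, 444 kept direction and side of the threshold, 41 passed it and 0 reversed. The cause of these changes was not tested. Genes named by the rule had to show no overlap between lines, so leaving out a library could hardly reverse their direction. The 18 also include SIX6 and CHI3L2, chosen after their values were seen, and do not cover every gene named in the text. Depth limits genes under 5 CPM most.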

Other observations

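Some genes outside the rule and the lists also stood apart between lines, and were chosen after their values were seen. CHI3L2, a chitinase-like secreted protein, had 156, 109 and 106 CPM in unstimulated dE9, against 329 and 385 CPM in unstimulated WT. Under PMA it had 252, 140 and 77.7 CPM in dE9, against 314 and 292 CPM in WT. The lines did not overlap in either treatment, and the log2 fold change was −1.25 ± 0.27 (SE). PTCHD3P1, a pseudogene that overlaps SVIL-AS1, had 0 counts in all 4 WT libraries and 11 to 63 counts in each of the 6 dE9 libraries, 147 in all. Against a floor of 3 counts per library in WT it was at least 6.97-fold higher in dE9.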
